A study of Homo sapiens with 12 samples.

Results

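The genes that copy DNA and carry cells from G1 into S phase were followed in HK-2 cells, a line of human kidney proximal tubule cells, with and without a treatment that the labels call Fk. A list of 41 genes was used, each read from 1 probe set, the brightest over the 12 arrays among those that name a single gene. All 41 were among the 10784 genes tested, out of 19775 genes with such a probe set, and every member reached the level set for testing, log2 4, on at least 3 of the arrays at 48 h. By role, 10 members license origins, 6 activate the replicative helicase, 14 are polymerases and fork factors, 4 supply nucleotides, 4 regulate the step from G1 to S and 3 handle chromatin behind the fork.

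A cell prepares to copy its DNA in G1. The origin recognition complex, CDC6 and CDT1 then load the ring of MCM2 to MCM7 onto DNA, which licenses an origin. In S phase CDC45 and the GINS proteins join the ring to form the active helicase, polymerases alpha, delta and epsilon extend the new strands, the RFC complex loads the sliding clamp PCNA, and FEN1 and LIG1 finish the lagging strand. Cyclin E with its kinase and the phosphatase CDC25A drive entry into S phase, and the E2F factors, held back by RB in quiescent cells, switch on most of these genes together. Cells that leave the cycle are known to lower them.

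There were 4 groups of 3 arrays. Cultures received Fk for 12 h, Fk for 48 h, or only the vehicle (control) for the same 12 h or 48 h. All were HK-2 cells in the same growth medium with EGF and insulin, plated 24 h before treatment and about 90% confluent when it began. The labels do not expand the name Fk, a dose was not used here, and the arrays of a group are called biological replicates, without saying whether the cultures shared a passage or day. HK-2 is a single immortalized line, and all groups share it. Values are log2 GCRMA levels, in which 1 unit is a doubling. Of 8 markers of the line, KRT8, KRT18, KRT19, VIM and CDH2 were detected, whereas the tubule genes ANPEP, GGT1 and AQP1 did not reach log2 4 on 3 arrays. Of 5 fibroblast markers, COL1A1, DCN and LUM were detected and COL3A1 and PDGFRB stayed under log2 2.87. The summed level of the 5 ran from 10.2 to 10.9 in controls at 12 h, 10.8 to 11.1 with Fk at 12 h, 9.69 to 11.01 in controls at 48 h and 9.82 to 11 with Fk at 48 h, so it overlapped between times, and its part in the results was not tested. With Fk over time 1 of the 3 detected fibroblast markers fell. Of 3 leukocyte markers with a probe set, none was detected, and of 4 endothelial and 3 distal tubule markers 1 each just reached log2 4 (PECAM1 and AQP2). Fk 12 h replicate 3 stood apart from the other arrays, with a 28S control probe set at 14.4 against 8.5 to 10.3 elsewhere, and results that rest on it are given with and without it.

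The promoters of the members were read first, since E2F factors are known to act through short words near the start of these genes. RefSeq promoters of GRCh38.p14, each 250 bases before to 50 bases after an annotated start, were at hand for 37 of the 41 members (no entry for MCM4, MCM5, GINS4 and CCNE2). An E2F word (TTTGGCGC, TTTCCCGC, TTTCGCGC or TTTGCCGC, on either strand) stood in 20 of the 37, or 54.1%, and in 3.99% of all 27305 genes with a promoter. The 4 sequences printed here are those of the members with the smallest p over time in control cultures that hold such a word, with the word in capitals (on the opposite strand it reads as its reverse complement). CDC25A lies at chr3:48188368-48188667 on the minus strand, POLA1 at chrX:24693668-24693967, POLA2 at chr11:65261712-65262011 and GINS1 at chr20:25407423-25407722, these on the plus strand, and each sequence runs 5′ to 3′ along its gene.
CDC25A promoter: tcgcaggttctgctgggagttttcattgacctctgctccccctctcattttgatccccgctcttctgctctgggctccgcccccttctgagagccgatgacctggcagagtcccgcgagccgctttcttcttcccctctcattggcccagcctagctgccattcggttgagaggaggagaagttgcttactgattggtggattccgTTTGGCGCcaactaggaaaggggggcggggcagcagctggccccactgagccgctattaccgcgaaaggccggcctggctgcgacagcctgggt
POLA1 promoter: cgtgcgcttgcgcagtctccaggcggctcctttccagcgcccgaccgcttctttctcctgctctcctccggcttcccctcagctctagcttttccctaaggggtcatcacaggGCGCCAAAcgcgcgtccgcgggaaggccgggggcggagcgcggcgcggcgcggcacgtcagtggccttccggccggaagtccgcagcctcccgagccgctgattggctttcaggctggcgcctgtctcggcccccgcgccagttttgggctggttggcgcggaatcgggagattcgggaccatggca
POLA2 promoter: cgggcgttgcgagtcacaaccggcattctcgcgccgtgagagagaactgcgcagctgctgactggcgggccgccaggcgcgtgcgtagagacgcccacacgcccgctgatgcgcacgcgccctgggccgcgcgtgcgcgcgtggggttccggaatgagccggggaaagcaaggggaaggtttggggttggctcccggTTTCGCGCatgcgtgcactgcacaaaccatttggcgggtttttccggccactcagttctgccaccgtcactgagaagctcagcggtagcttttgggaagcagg
GINS1 promoter: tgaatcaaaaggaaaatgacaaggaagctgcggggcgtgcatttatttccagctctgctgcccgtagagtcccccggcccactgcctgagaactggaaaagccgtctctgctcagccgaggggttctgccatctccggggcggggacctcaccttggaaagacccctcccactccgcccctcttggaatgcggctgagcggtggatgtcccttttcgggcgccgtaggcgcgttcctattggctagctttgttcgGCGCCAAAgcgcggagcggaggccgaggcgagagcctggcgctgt

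The word in CDC25A began 44 bases before the start, that of POLA2 53 bases before it and that of POLA1 137 bases before it, while that of GINS1 lay 6 to 13 bases after it. MCM6 held 4 words in pairs that overlap on opposite strands, MCM2 held 1 such pair, and MCM3, MCM7 and E2F1 held 2 words each. By role, words stood in 6 of 8 licensing promoters, 3 of 5 of helicase activation, 7 of 14 of polymerases and fork factors, 1 of 4 of nucleotide supply (TYMS), 2 of 3 of G1/S regulators and 1 of 3 of chromatin factors. The CCAAT box stood in 59.5% of the members' promoters and 39.7% of all genes, and TTTGAA, the letters of a late cell cycle element, in 2.7% and 18.2%. A match of letters is a description, not a bound site. ORC1, MCM10, CCNE1, RRM2 and FEN1 had none of the 4 words in this window, which says only that these letters are not there.

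**Figure D1:**
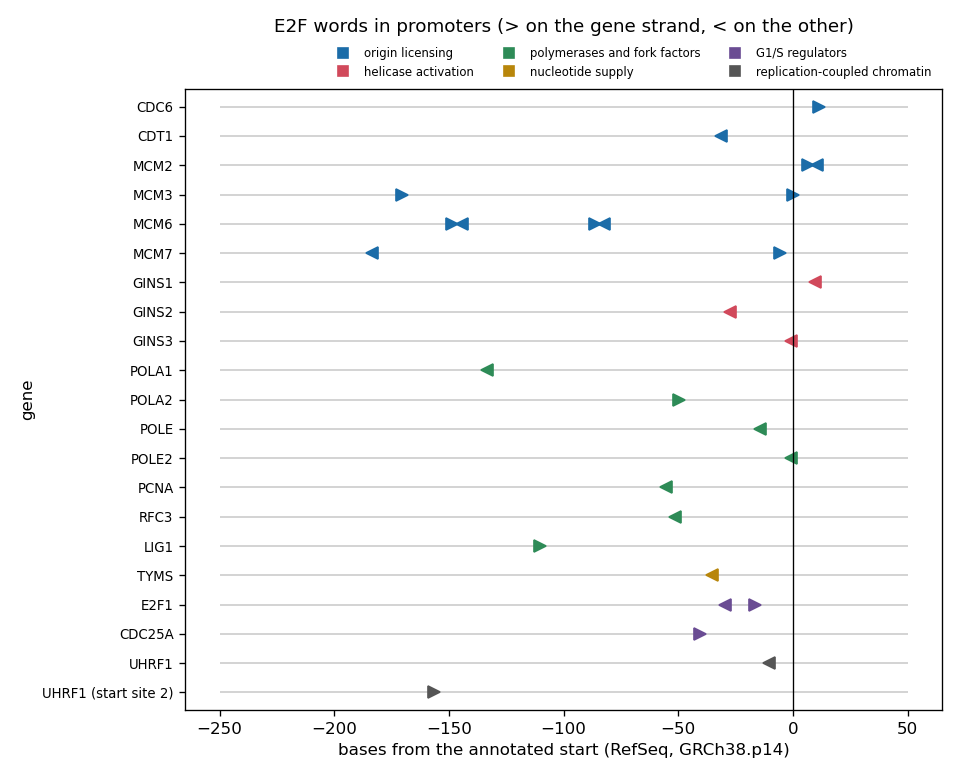
Position of each E2F word in the promoters of the 20 members that hold one, in bases from the annotated start (RefSeq, GRCh38.p14), coloured by role; the triangle points right for the gene strand and left for the other. Most words lie close to the start, MCM6 has 4 of them upstream, and UHRF1 is drawn at 2 annotated starts.

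Control cultures had lower replication genes at 48 h than at 12 h. Of the 41 members, 29 fell, none rose and 12 did not pass the test (limma, Benjamini-Hochberg adjusted p under 0.05 over all genes tested), where 10.9% of all genes tested fell and 10.6% rose. The median log2 change was -1.11 over the members and 0.01 over all genes tested, and 40 of 41 members were negative. The line's own markers also moved, with 3 of the 5 detected lower by the same test. Their summed level, over all 8, ran from 15.2 to 15.4 in controls at 12 h and from 14.95 to 14.996 at 48 h without overlap, and its part in the result was not tested. On 38 members every control array at 48 h lay below every control array at 12 h, which held for 24.9% of all genes tested. From RNA of a whole culture, fewer cells in S phase and less of each mRNA per cell cannot be told apart. The count of falls depended on which arrays were kept: it was 14, 15 or 14 without control 12 h replicate 1, 2 or 3, 13 or 17 without control 48 h replicate 1 or 2, and 33 without Fk 12 h replicate 3, which enters only through the shared spread. With no filter on dim genes it was 17. MCM10, CDC45, GINS1, GINS2, POLA1, POLA2, FEN1, CCNE1, CCNE2, CDC25A and CHAF1A, 11 of the 29, were called in every setting in which they were tested at this threshold.

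**Figure D2:**
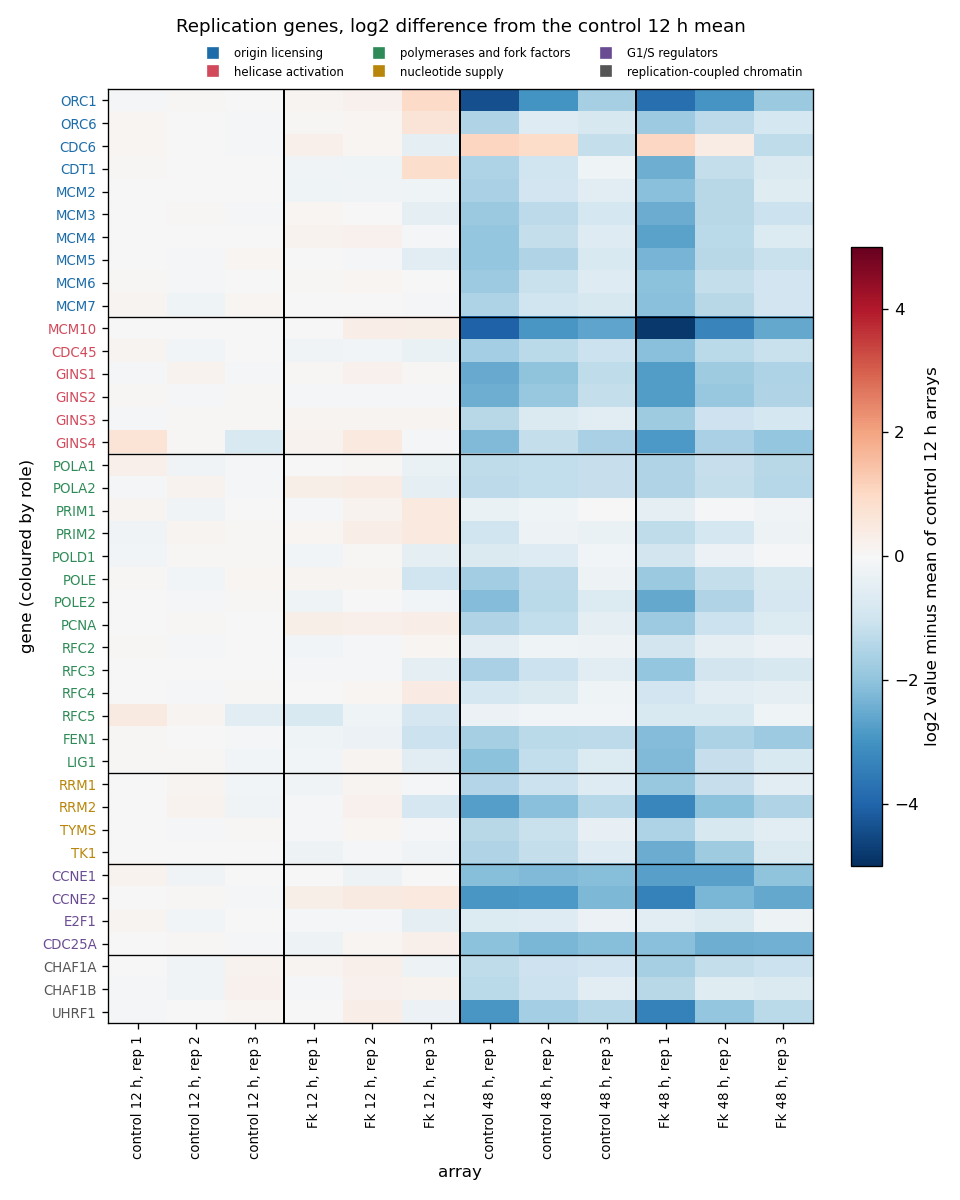
Difference of each member from its mean on the control 12 h arrays (log2 units, colour) on all 12 arrays, with members in rows coloured by role and groups parted by black lines. The control 12 h arrays are close to 0 for most members, the 48 h arrays are below it for nearly all members, and CDC6 is above it on replicates 1 and 2 and below it on replicate 3 in both 48 h groups.

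Among the regulators of the G1 to S step, CDC25A, which activates the cyclin-dependent kinases, read 7.90, 7.95 and 7.85 on the control arrays at 12 h and 5.85, 5.63 and 5.79 at 48 h. The arrays of a group lay close together and the groups did not overlap. CDC25A fell by 2.14 on the log2 scale (SE 0.15, 4.42-fold, adjusted p = 8.84e-05), the member with the smallest p over time. CCNE1, cyclin E1, read 7.97, 7.62 and 7.80 at 12 h and 5.68, 5.57 and 5.66 at 48 h, a 4.45-fold fall (log2 -2.15, SE 0.18, adjusted p = 0.000326). CCNE2, cyclin E2, read 9.66, 9.69 and 9.58 at 12 h and 6.73, 6.78 and 7.42 at 48 h, a 6.35-fold fall (log2 -2.67, SE 0.26, adjusted p = 0.000469). E2F1, the activating E2F factor, read 7.35, 7.05 and 7.19 at 12 h and 6.53, 6.57 and 6.92 at 48 h. These groups did not overlap either, and the change of -0.52 (SE 0.17) missed the threshold with an adjusted p of 0.0557. E2F1 passed in 8 of the 26 settings run for this contrast at this threshold. Among these were the mean of its probe sets (adjusted p = 0.0337) and the fit without Fk 12 h replicate 3 (adjusted p = 0.0288).

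Of the 10 licensing genes, 7 fell and 3 did not pass the test (CDC6, CDT1 and MCM4). ORC1, the origin recognition subunit whose level is known to swing through the cycle, read 7.95, 8.05 and 8.0 at 12 h and 3.60, 5.00 and 6.34 at 48 h. All 48 h arrays were lower, and they were far apart, so the 8.10-fold fall carried a wide error (log2 -3.02, SE 0.63, adjusted p = 0.00933). MCM2, a subunit of the ring, read 11.60, 11.56 and 11.63 at 12 h and 9.98, 10.63 and 11.04 at 48 h (log2 -1.05, SE 0.34, adjusted p = 0.049). MCM7, another subunit, read 11.54, 11.21 and 11.50 at 12 h and 9.88, 10.42 and 10.61 at 48 h (log2 -1.11, SE 0.27, adjusted p = 0.0164). ORC6, the smallest origin recognition subunit, fell as well, from 11.10, 11.01 and 10.95 to 9.51, 10.39 and 10.23. CDT1, which works with CDC6 to load the ring, read 8.98, 8.91 and 8.92 at 12 h and 7.40, 7.94 and 8.71 at 48 h, lower on every array but too spread to pass. The ring subunits MCM2 to MCM7 thus showed log2 changes from -1.05 (MCM2) to -1.40 (MCM5), and each had separate groups. CDC6 differed from its partners and is described with the spread at 48 h.

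All 6 genes of helicase activation fell, with a median log2 change of -1.76. MCM10, which helps the loaded ring start to unwind, read 8.82, 8.76 and 8.76 at 12 h and 4.74, 5.89 and 6.13 at 48 h. Its fall was 9.16-fold (log2 -3.20, SE 0.50, adjusted p = 0.0028), and among the probe sets in use no other member changed by more in this contrast. Size and rank depend on the probe set. The other bright probe sets of MCM10 gave -1.86 and -2.13, the first with the same mean level of 7.14 as the one in use. The second probe set of CCNE2 gave -3.35. GINS1 read 11.16, 11.43 and 11.21 at 12 h and 8.77, 9.26 and 10.00 at 48 h, clear of each other. CDC45, which joins GINS in the active helicase, read 8.5, 8.24 and 8.39 at 12 h and 6.69, 7.03 and 7.32 at 48 h, also apart. The GINS subunit GINS4 varied already at 12 h, with 8.92, 8.31 and 7.48, and stood at 6.03, 7.06 and 6.61 at 48 h. GINS3, also a GINS subunit, read 8.80, 8.96 and 8.97 at 12 h and 7.52, 8.20 and 8.38 at 48 h, the smallest change of the 6 (log2 -0.87, SE 0.26, adjusted p = 0.0352).

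Polymerases and fork factors were split, with 7 of 14 past the test, all lower, and 7 not past it. POLA1, the catalytic subunit of polymerase alpha, which begins each new strand, read 9.35, 8.90 and 9.01 at 12 h and 7.80, 7.86 and 7.93 at 48 h (log2 -1.22, SE 0.16, adjusted p = 0.00135). POLA2, its partner subunit, read 7.59, 7.83 and 7.59 at 12 h and 6.35, 6.44 and 6.53 at 48 h. The control arrays of each subunit at 48 h lay within 0.18 log2 units. The primase subunits of the same complex had smaller changes in controls (PRIM2 log2 -0.54), and how they differ from POLA1 and POLA2 was not tested. PRIM1, which makes the RNA primer, read 9.84, 9.54 and 9.72 at 12 h and 9.37, 9.49 and 9.67 at 48 h, so that its groups overlapped (log2 -0.19, SE 0.17, adjusted p = 0.454). FEN1, the flap nuclease, read 10.85, 10.80 and 10.76 at 12 h and 9.15, 9.45 and 9.50 at 48 h (log2 -1.44, SE 0.23, adjusted p = 0.00282). PCNA, the sliding clamp, read 13.38, 13.47 and 13.37 at 12 h and 11.89, 12.16 and 12.94 at 48 h (log2 -1.07, SE 0.30, adjusted p = 0.0289). POLE2, RFC3 and LIG1 also fell, while PRIM2, POLD1, POLE, RFC2 and RFC4 had separate groups, all lower, that did not pass.

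RFC5, a clamp loader subunit, was the only member besides PRIM1 and CDC6 with overlapping control groups, and its probe sets differed. The probe set in use read 11.03, 10.72 and 10.02 at 12 h and 10.30, 10.45 and 10.45 at 48 h (log2 -0.19, SE 0.26, adjusted p = 0.638). With the mean of all its probe sets in place of the brightest, RFC5 passed as lower (log2 -0.67, adjusted p = 0.0114). The other 2 probe sets of RFC5 that were bright enough to test gave -0.85 and -0.97 over the same interval. Of the 79 probe sets of the members, 67 were bright, and all 20 members with several bright ones had the same sign in each over time in controls. RFC5 therefore differed between its probe sets in size, not in sign, here. The Fk effect was less uniform: its sign was shared by all bright probe sets in 13 of the 20 members at 48 h. At 12 h this held for 12 of them. The exceptions at 48 h were MCM4, MCM5, MCM10, RFC5, RRM2, E2F1 and CHAF1A.

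In nucleotide supply, RRM1, RRM2 and TYMS fell and TK1 did not pass. RRM2, the S phase subunit of ribonucleotide reductase, read 13.49, 13.66 and 13.30 at 12 h and 10.73, 11.40 and 12.05 at 48 h, a 4.26-fold fall (log2 -2.09, SE 0.45, adjusted p = 0.0112). TYMS, which makes thymidylate, read 13.30, 13.27 and 13.37 at 12 h and 11.91, 12.20 and 12.92 at 48 h (log2 -0.97, SE 0.28, adjusted p = 0.0338). TK1, which salvages thymidine, read 11.50, 11.49 and 11.50 at 12 h and 10.00, 10.32 and 10.86 at 48 h. Its groups were well apart, and with 48 h arrays spread over 0.86 units the change of -1.10 (SE 0.36) had an adjusted p of 0.0531. TK1 passed in some other settings, among them the mean of its probe sets (adjusted p = 0.0355) and a replicate block crossed over the groups (adjusted p = 0.0313), and without control 48 h replicate 1 its change was -0.91 (adjusted p = 0.175). All 3 chromatin factors fell. CHAF1A, the large subunit of the histone chaperone CAF-1, read 9.18, 9.04 and 9.37 at 12 h and 7.91, 8.15 and 8.25 at 48 h (log2 -1.09, SE 0.19, adjusted p = 0.00455). UHRF1, which guides the copying of DNA methylation, read 11.37, 11.41 and 11.56 at 12 h and 8.55, 9.75 and 10.04 at 48 h.

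Cultures with Fk also had lower replication genes at 48 h than at 12 h. In them 35 of 41 members fell and none rose, beside 11.7% of all genes tested that fell and 11.5% that rose, with a median log2 change of -1.41. Arrays of the 2 times did not overlap for 35 members, all lower, while 19.7% of all genes tested were lower without overlap. The 6 that did not pass were CDC6, PRIM1, POLD1, POLE, RFC5 and E2F1, each of which also missed the threshold in controls. CDT1, MCM4, PRIM2, RFC2, RFC4 and TK1 passed with Fk and not in controls, but the difference between the time courses was tested for each and passed for none. Without Fk 12 h replicate 3 the count was 33 and the median -1.44, without Fk 48 h replicate 1 the count was 22, and from the Fk arrays alone it was 18. Without Fk 12 h replicate 3 the lists changed too. CDT1, RFC2 and MCM2 did not pass with Fk (adjusted p = 0.0759, 0.0944 and 0.0534). RFC4, TK1 and E2F1 passed in controls (adjusted p = 0.0362, 0.04995 and 0.0288), and POLE passed in both (0.0307 with Fk, 0.042 in controls). MCM4 and PRIM2 still passed with Fk and not in controls.

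**Figure D3:**
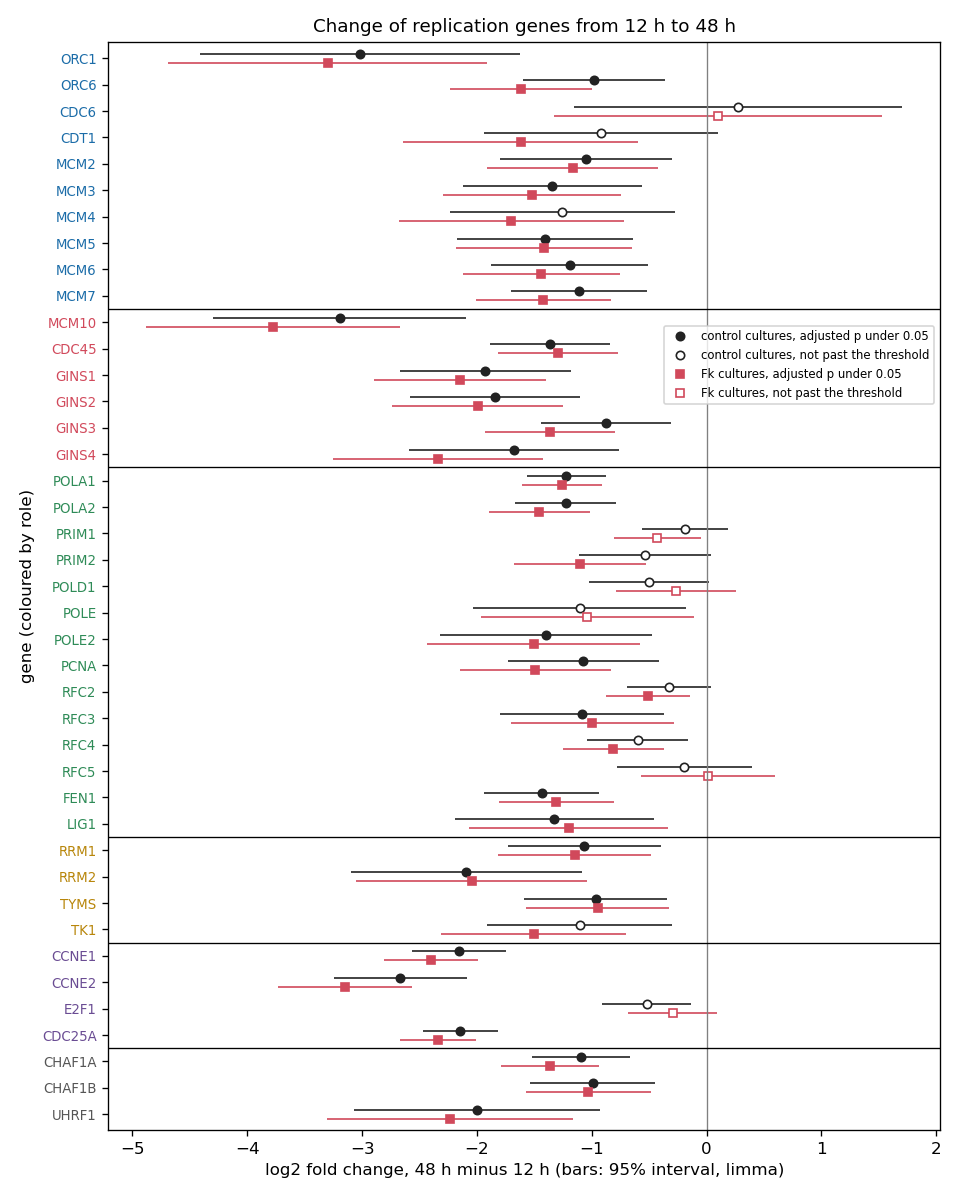
Log2 fold change from 12 h to 48 h of each member in control cultures (black circles) and Fk cultures (red squares), with the 95% interval of limma; filled symbols passed an adjusted p of 0.05. Nearly all points lie below 0, the intervals of the same gene in control and Fk cultures overlap, and CDC6 lies beside 0 with a wide interval.

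The level to which the members fell differed between cultures of the same group. The median SD of a member over 3 arrays was 0.095 in controls at 12 h and 0.471 at 48 h, while over all genes tested it was 0.125 and 0.216. With Fk it was 0.206 at 12 h and 0.567 at 48 h, and 0.242 and 0.221 over all genes tested. Set against the control mean at 12 h, the median member stood at -1.62, -1.18 and -0.70 on control 48 h replicates 1, 2 and 3, and at -2.07, -1.20 and -0.89 with Fk. Replicate 1 held the lowest value of 38 members in controls and of 36 with Fk, and replicate 3 held the highest of 34 and 32. Arrays numbered 1, and those numbered 3, thus stood alike in both 48 h groups, although the labels do not say that a number marks a shared culture or day. ORC1 spanned 2.74 log2 units between control 48 h replicates 1 and 3, UHRF1 1.49 and POLE 1.49. CCNE1 and CDC25A, on the probe sets in use, spanned less than 0.1 between the same arrays (-0.02 and -0.06, replicate 3 minus 1), and POLA1 0.13. The other bright probe sets of CDC25A rose from control 48 h replicate 1 to 3, at levels near or under log2 4. They read 3.43, 4.12 and 4.61, and 2.84, 3.30 and 3.44. With Fk the first rose as well (3.40, 4.03 and 4.15) and the second did not (3.16, 3.11 and 2.88).

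The fan at 48 h was seen in the median of each role but that of the G1/S regulators. Against the control mean at 12 h, the median licensing gene stood at -1.72, -1.05 and -0.78 on control replicates 1, 2 and 3 and at -2.22, -1.36 and -0.95 with Fk. The helicase genes stood at -2.33, -1.62 and -1.23 in controls and at -2.78, -1.71 and -1.54 with Fk, and the nucleotide supply genes at -1.48, -1.14 and -0.64 and at -2.19, -1.47 and -0.64. Polymerases and fork factors stood at -1.30, -1.15 and -0.40 in controls and -1.50, -0.99 and -0.73 with Fk, and the chromatin factors at -1.35, -1.09 and -0.95 and at -1.67, -1.18 and -1.07. In these 5 roles replicate 1 was the lowest array of both groups. The median of the 4 G1/S regulators kept to a narrow band, at -2.08, -2.24 and -2.12 in controls and -2.41, -2.37 and -2.21 with Fk. In controls CDC25A and CCNE1, on the probe sets in use, set this median, and the dimmer probe sets of CDC25A were not in it. Replicate 3 minus 1 was 0.68 for CCNE2 and 0.39 for E2F1 in controls, and 0.83 and 0.27 with Fk. For CCNE1 it was -0.02 in controls and 0.69 with Fk, and for CDC25A -0.06 and -0.28. The mitosis genes, a list of 20 kept for comparison, fanned out as the licensing genes did, at -1.71, -1.16 and -0.62 in controls and -1.80, -1.17 and -0.71 with Fk. The median over all genes tested stood between -0.00394 and 0.0446 on these arrays.

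CDC6, the loader that recruits the MCM ring and is itself degraded in early G1, ran against the other members at 48 h. It read 10.23, 10.12 and 10.08 on the control arrays at 12 h and 11.23, 11.06 and 8.96 at 48 h. With Fk it read 10.39, 10.23 and 9.64 at 12 h and 11.19, 10.51 and 8.86 at 48 h. Replicates 1 and 2 at 48 h lay above every 12 h array and replicate 3 below every one, in both groups, so that CDC6 was highest where nearly all other members were lowest. Its second probe set gave 10.19, 10.33 and 8.78 in controls and 10.14, 9.77 and 8.37 with Fk at 48 h, again lowest on replicate 3. At 12 h it gave 9.65, 9.70 and 9.70 in controls and 9.91, 9.875 and 9.86 with Fk. On this probe set Fk 48 h replicate 2 therefore lay below every Fk array at 12 h, unlike on the first. The change over time in controls was 0.28 (SE 0.65, adjusted p = 0.796), and it was -0.13 without control 48 h replicate 1 and -0.05 without replicate 2. Without replicate 3 it was 1.00, which did not pass, and without replicate 3 of both 48 h groups, a setting chosen after seeing the data, the same 1.00 passed (adjusted p = 0.0211). CDC6 was singled out after its values were seen.

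**Figure D4:**
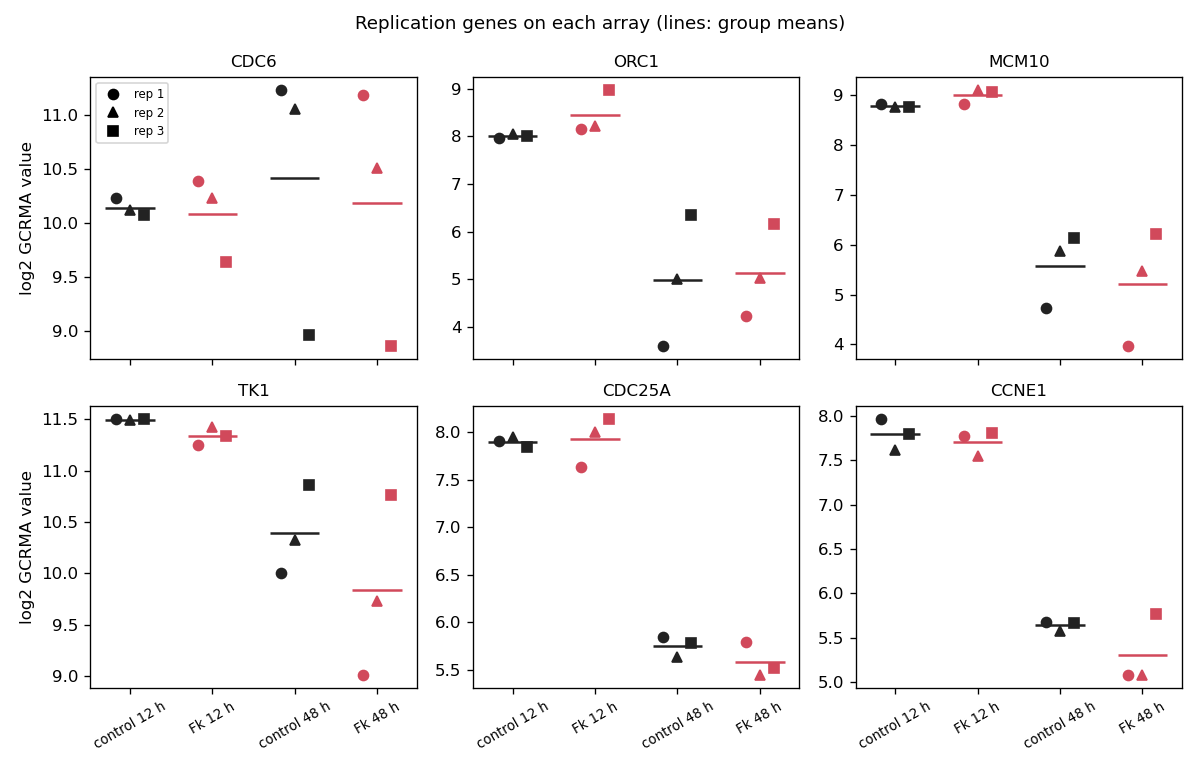
Log2 levels of 6 members on each array, by group, with the replicate number as the symbol and the group mean as a line; each panel has its own axis. CDC6 is high on 48 h replicates 1 and 2 and low on replicate 3, ORC1, MCM10 and TK1 are lowest on replicate 1, and CDC25A and CCNE1 fall to a narrow range in controls.

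At 12 h none of the 41 members passed the test between Fk and control, and of all genes tested 0% passed. In sign 22 were negative, with a median difference of -0.04 beside 0.01 over all genes tested. At an unadjusted p under 0.05 there were 2 members, both lower with Fk, beside 6.71% of all genes tested. FEN1 read 10.58, 10.50 and 9.73 with Fk and 10.85, 10.80 and 10.76 in controls (log2 -0.53, SE 0.23, adjusted p = 0.738). All Fk arrays were lower, and without Fk replicate 3 the difference was -0.27. Both bright probe sets of FEN1 had the same sign. RFC5 read 9.84, 10.39 and 9.77 with Fk and 11.03, 10.72 and 10.02 in controls, which overlap (log2 -0.59, SE 0.26, adjusted p = 0.74). Its other bright probe sets gave 0.21 and 0.20, the opposite sign. Groups did not overlap for 9 members, 5 lower and 4 higher, while 6.49% of all genes tested were lower without overlap and 9.91% higher. PCNA was among the higher ones, at 13.69, 13.67 and 13.74 with Fk against 13.38, 13.47 and 13.37, and CCNE2, at 9.93, 10.10 and 10.14 against 9.66, 9.69 and 9.58. ORC1 and GINS3 were the other 2 higher members, and MCM2, CDC45, RFC3 and TK1 were lower beside FEN1. With the 2 other Fk arrays alone 7 members were lower and 8 higher without overlap, beside 15.5% and 21.7% of all genes tested. Without Fk 12 h replicate 3 the median of the members was 0.04.

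At 48 h no member passed the test between Fk and control, and of all genes tested again 0% did. Here 36 of 41 members were negative, with a median of -0.21 beside 0.02 over all genes tested, and values from -0.56 (TK1) to 0.16 (ORC1). No member reached an unadjusted p under 0.05, beside 5.18% of all genes tested, and no member had separate groups, beside 4.02% of all genes tested that were lower without overlap. The half-width of the 95% interval had a median of 0.657 log2 units over the members and 0.447 over all genes tested. A difference of the size of the median was thus not detectable with this fit of group means. The fit does not take out spread that same-numbered arrays share, and a fit with a replicate block is given at the end. The sign of the median turned when some single arrays were left out: it was 0.11 without Fk 48 h replicate 1 and 0.01 without control 48 h replicate 3. Arrays numbered 1, and those numbered 3, stood alike in both 48 h groups, so leaving out 1 of them also unbalances the groups. What this adds to the turn was not tested. Between arrays of the same number the median was -0.38, -0.09 and -0.15 for numbers 1, 2 and 3. The summed level of the 8 line markers was 15.1 to 15.3 with Fk, above the 14.95 to 14.996 of the controls on every array, although none of the 5 detected passed, and its part in the result was not tested. A fit with estimated array weights called 5 members, ORC6, PRIM2, TK1 and CCNE1 lower and CCNE2 higher, but its estimation stopped before it converged and gave Fk 48 h replicate 2 a weight of 21.6.

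Licensing genes had a median Fk difference of -0.31 at 48 h, with 9 of 10 negative. MCM7 read 9.34, 10.04 and 10.46 with Fk and 9.88, 10.42 and 10.61 in controls (log2 -0.36, SE 0.27), each Fk array below the control of its number and the groups overlapping, and the difference was -0.05 without Fk replicate 1. MCM2 read 9.51, 10.21 and 10.98 with Fk and 9.98, 10.63 and 11.04 in controls (log2 -0.32, SE 0.34), and the sign turned to 0.05 without Fk replicate 1. Helicase activation had a median of -0.28, with 6 of 6 negative. GINS3 read 7.13, 7.89 and 8.04 with Fk and 7.52, 8.20 and 8.38 in controls (log2 -0.35, SE 0.26, or -0.07 without Fk replicate 1). Polymerases and fork factors had a median of -0.14, with 13 of 14 negative. FEN1 read 8.65, 9.23 and 9.00 with Fk and 9.15, 9.45 and 9.50 in controls (log2 -0.41, SE 0.23), overlapping only between Fk replicate 2 and control replicate 1, and the difference was -0.25 without Fk replicate 1. PCNA read 11.58, 12.32 and 12.72 with Fk and 11.89, 12.16 and 12.94 in controls (log2 -0.13, SE 0.30), and this turned to 0.18 without Fk replicate 1 and also without control replicate 3.

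Nucleotide supply had a median Fk difference of -0.16 at 48 h, with 3 of 4 negative. TK1 read 9.01, 9.73 and 10.77 with Fk and 10.00, 10.32 and 10.86 in controls (log2 -0.56, SE 0.36), each Fk array below the control of its number and the groups overlapping widely. The difference was -0.15 without Fk replicate 1 and -1.03 without Fk replicate 3. RRM2 read 10.23, 11.42 and 11.98 with Fk and 10.73, 11.40 and 12.05 in controls (log2 -0.18, SE 0.45, or 0.31 without Fk replicate 1 and 0.15 without control replicate 3). TYMS read 11.76, 12.52 and 12.77 with Fk and 11.91, 12.20 and 12.92 in controls, and their means were 12.35 in each group. Of the G1/S regulators, CCNE1 read 5.08, 5.08 and 5.77 with Fk and 5.68, 5.57 and 5.66 in controls (log2 -0.33, SE 0.18). Replicates 1 and 2 with Fk lay below every control array and replicate 3 above them, and the difference was -0.56 without the latter. CCNE2 read 6.27, 7.35 and 7.09 with Fk and 6.73, 6.78 and 7.42 in controls (log2 -0.07, SE 0.26), a difference whose sign turned to 0.25 without Fk replicate 1 and 0.15 without control replicate 3. CDC25A read 5.80, 5.45 and 5.52 with Fk against 5.85, 5.63 and 5.79, and E2F1 6.68, 6.46 and 6.94 against 6.53, 6.57 and 6.92. The chromatin factor CHAF1A read 7.53, 8.01 and 8.12 with Fk and 7.91, 8.15 and 8.25 in controls (log2 -0.22, SE 0.19, or -0.04 without Fk replicate 1).

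Fk was also set against the control of its own number. At 48 h the median of the members was -0.38 for number 1, -0.09 for number 2 and -0.15 for number 3, and 39, 24 and 34 of the 41 were negative. Over all genes tested the medians were 0.02, 0.03 and -0.00138. In all 3 numbers Fk was lower for 18 members, or 43.9%, beside 15.9% of all genes tested, and it was higher in all 3 for no member, beside 20% of all genes tested. These counts are a description, since all members share the same 3 array differences and the numbers were not taken as pairs. Of the 18, 8 were licensing genes (ORC6, CDC6, CDT1, MCM2, MCM3, MCM4, MCM6 and MCM7, of 10), 3 helicase genes (CDC45, GINS3 and GINS4, of 6), 4 polymerases and fork factors (POLE2, RFC2, RFC5 and FEN1, of 14), and TK1, CDC25A and CHAF1A. GINS3 had the narrowest spread, with -0.39, -0.31 and -0.34, and FEN1 gave -0.51, -0.22 and -0.50. TK1 gave -0.99, -0.60 and -0.09, and CDC6, for all its swing, -0.05, -0.55 and -0.10. ORC1 went the other way in numbers 1 and 2, with 0.63, 0.03 and -0.19. For RFC5 the other bright probe sets had the opposite sign at 48 h, 0.30 and 0.38. CHAF1A and MCM4, also among the 18, each had 1 bright probe set above 0 at 48 h (0.16 and 0.00052). Their remaining bright probe sets were negative. At 12 h Fk was lower in all 3 numbers for 6 members (14.6%) and higher for 7, beside 14.3% and 20% of all genes tested, with medians of -0.03, 0.10 and -0.16, number 3 holding the array that stood apart.

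**Figure D5:**
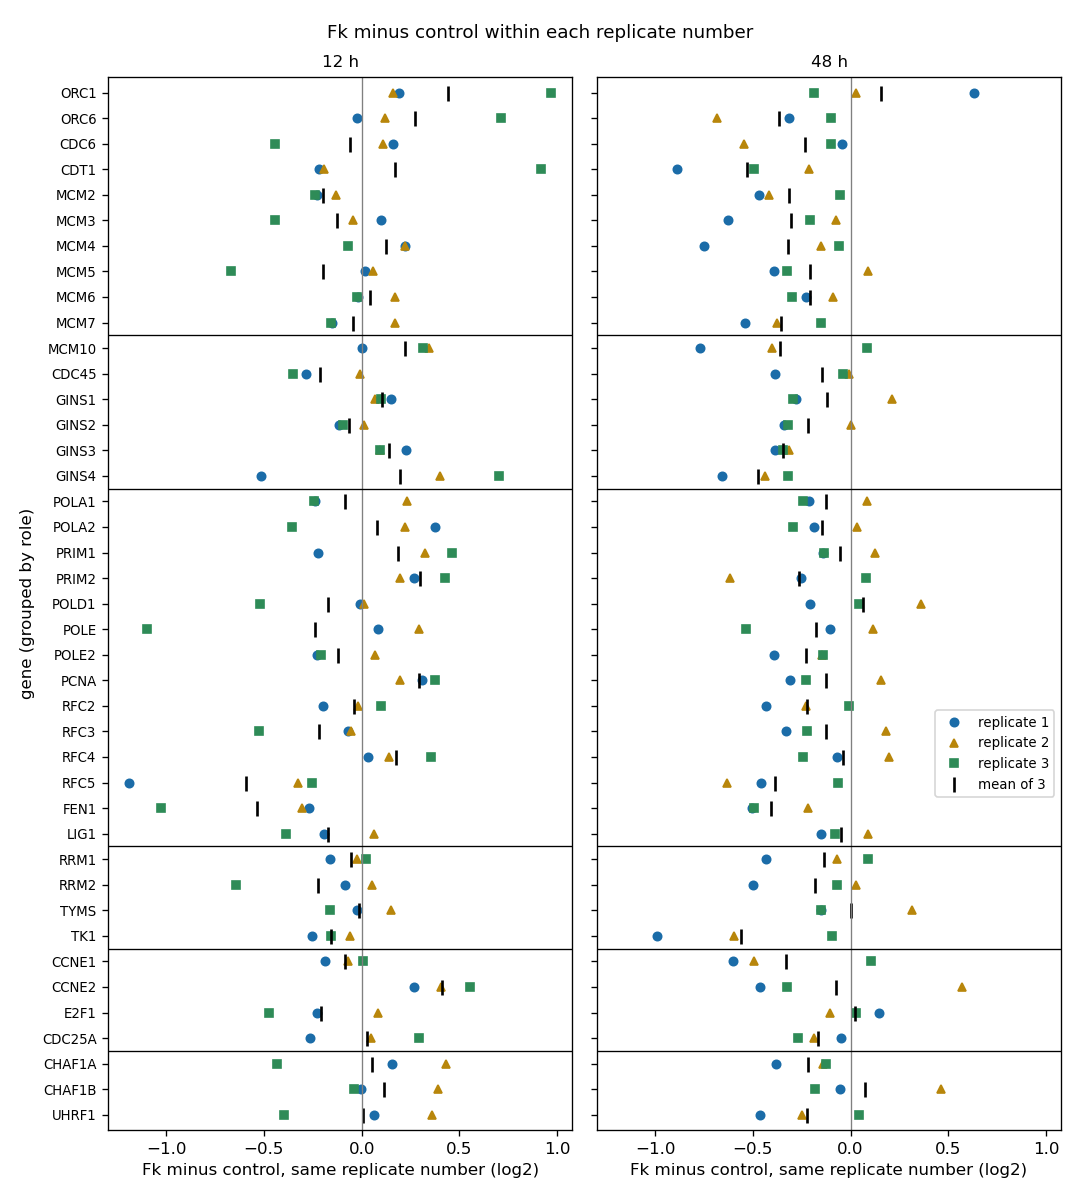
Fk minus control for arrays of the same replicate number at 12 h (left) and 48 h (right), 1 row per member, with the mean of the 3 as a bar (log2 units). At 12 h the points lie on both sides of 0, and at 48 h most points of numbers 1 and 3 lie below 0 while those of number 2 are on both sides.

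The Fk effect was then compared between the times. The difference, the effect at 48 h minus that at 12 h, passed for none of the 41 members and for no gene tested (0%), and at an unadjusted p under 0.05 for no member beside 3.31% of all genes tested. It was negative for 31 members, with a median of -0.19, and for 10 of 10 licensing genes, with a median of -0.26. It ranged from -0.70 (CDT1, at 12 h 8.76, 8.72 and 9.83 with Fk, the last on the array that stood apart) to 0.24 (POLD1). Without Fk 12 h replicate 3 CDT1 was at -0.33, the range ran from -0.79 (GINS4) to 0.10 (POLD1), 37 members were negative and the median was -0.20. At an unadjusted p under 0.05 there was then 1 member, and none passed the adjusted test. The median turned to 0.11 without Fk 48 h replicate 1 and to 0.02 without control 48 h replicate 3.

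Other genes of replication were read from a list of 42, of which 41 had a probe set and were tested. In controls from 12 h to 48 h 18 fell, none rose and 23 did not pass, with a median of -0.68. The smallest p among those that fell were those of EXO1, a nuclease of repair and replication, and CLSPN, the checkpoint mediator claspin. EXO1 read 9.16, 8.93 and 8.88 at 12 h and 6.64, 6.68 and 7.59 at 48 h, while CLSPN read 4.95, 5.20 and 5.33 at 12 h and between 2.41 and 3.42 at 48 h, under the level of log2 4 set for testing, so that its fall is measured against dim values. On the positive side none passed, and the smallest p were those of RRM2B, the ribonucleotide reductase subunit of non-dividing cells (7.93, 8.20 and 7.89 at 12 h, 8.42, 8.31 and 8.57 at 48 h, adjusted p = 0.205), and RFC1, the large clamp loader subunit (adjusted p = 0.281). The other origin subunits ORC2, ORC3, ORC4 and ORC5 had log2 changes of -0.03, -0.38, 0.11 and 0.01, none past the test. They and E2F7, named next, were singled out after their values were seen. Under Fk none of the 41 passed at either time. At 48 h their median Fk difference was -0.06 with 30 negative. E2F7, a repressing E2F factor, read 8.22, 8.82 and 9.31 with Fk and 7.65, 8.15 and 8.14 in controls at 48 h, higher on every Fk array without overlap (log2 0.81, SE 0.26, adjusted p = 0.726). Of 20 mitosis genes, 15 fell in controls over time and none rose, with a median of -1.15, and at 48 h none passed between Fk and control, with a median of -0.02.

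Members with and without an E2F word were compared over time in controls as a description. The 20 with a word, among them the printed CDC25A, POLA1, POLA2 and GINS1, had a median log2 change of -1.15, and 16 were called lower. The 17 without one had a median of -1.06, and 10 were called lower. The members with a word ranged from -2.14 (CDC25A) to 0.28 (CDC6, whose word lies 8 to 15 bases after the start) and those without one from -3.20 (MCM10) to -0.19 (PRIM1).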

How the data were processed

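Total RNA of 12 HK-2 cultures was measured on Affymetrix arrays. The deposited values are log2 levels per probe set, made by the authors with GCRMA, which adjusts background, normalizes quantiles and summarises probes, per the submitters' processing notes. Its version, and whether other arrays were normalized together with these, are not given in the sources used here. Of 54675 probe sets 41097 name 1 gene, 1801 several and 11777 none. A gene was tested if its brightest single-gene probe set reached log2 4 on at least 3 arrays. Array medians ran from 2.85 to 2.94, and the number of arrays, 3 a group, limits the precision.

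A model of group means over the 12 arrays was fitted to all genes with limma 3.58.1 under R 4.3.3, and its spread was moderated by eBayes, with 2.44 prior beside 8 residual degrees of freedom. Tests are two-sided, adjusted by Benjamini-Hochberg over 10784 genes, and called under 0.05. If the cultures of a group were not independent, p-values measure only the spread between these samples. The fit was tested on simulated data. The members and the lists were chosen with earlier results of these data known. Values on every array are given for the member of each role with the smallest p over time and at 48 h, and for PCNA, MCM2, TYMS, RRM2, TK1, CCNE1, CCNE2 and E2F1, and for others chosen after their values were seen. Another 29 settings were run, of which 25 were planned and 4 chosen after seeing the data. Same-numbered Fk and control arrays were checked for pairing by the correlation of their deviations from group means (12 h 0.04, 0.27 and 0.16, 48 h 0.80, -0.03 and 0.61). These did not all pass 0.1, so the numbers were not taken as pairs. Promoter words were counted with Python 3.11.15 and pandas 2.3.3, and figures drawn with matplotlib 3.10.9.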

Additional observations from a re-analysis of the deposited data

How the results depend on the processing

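In these settings no member passed between Fk and control at 12 h, and none for the difference of the effects. At 48 h none passed except with array weights, which called 5 (CCNE1 had the smallest adjusted p, 0.0106). The members' median at 12 h was 0.263 with a covariate for poly-A spike-ins and ran from -0.0591 to 0.0376 when single arrays were left out. At 48 h it was 0.00855 with that covariate and ran from -0.43 to 0.11, and for the difference it ran from -0.40 to 0.11. In controls over time 17 members were called with no filter on dim genes, 12 at an adjusted p of 0.01, 13 to 34 without single arrays and 12 to 36 without both 48 h arrays of a number, with medians from -1.35 to -0.91. With Fk over time 18 were called from only the groups compared, 18 at 0.01, 22 to 35 without single arrays and 21 to 36 without both 48 h arrays of a number. The sign of the Fk difference turned under at least 1 setting for 27 of the 41 members at 12 h and 30 at 48 h. At 48 h MCM2 was 0.0202 with the spike-in covariate and ran from -0.69 to 0.0474 without single arrays. PCNA was 0.106 with array weights and 0.116 with the covariate, and ran from -0.38 to 0.18. RRM2 was 0.0225 as the mean of its probe sets, 0.0522 with array weights and 0.198 with the covariate, and ran from -0.56 to 0.31. CCNE2 was 0.49 with array weights, ran from -0.297 to 0.246 without single arrays, and was 0.124 without both arrays numbered 1 and 0.0531 without both numbered 3. Over time in controls CDC6 ran from -0.132 to 1.00 and RFC5 from -0.477 to 0.0273 without single arrays, and without both 48 h arrays numbered 1 or 2 CDC6 was -0.132 or -0.0458. The cause of these turns was not tested. Of all genes tested, 472 were called at 12 h, 2484 at 48 h and 620 for the difference with array weights, which weighted Fk 12 h replicate 3 at 0.0947. The mean of probe sets called 4 at 48 h. In controls over time array weights called 5430 genes and left-out arrays 693 to 3445, and with Fk array weights called 7048, only the groups compared 854 and left-out arrays 1014 to 3055.

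With a replicate block for the number within each time, no member passed. At an unadjusted p under 0.05 there were then 3 members at 12 h (PCNA, RFC5 and FEN1) and 4 at 48 h, all lower (MCM2, MCM7, GINS3 and TK1), beside 11.7% and 9.12% of all genes. For the difference of the effects there were 4, all lower (ORC6, GINS3, PRIM2 and PCNA), beside 6.66%. The smallest adjusted p of a member at 48 h was 0.359, and the count of all genes called was 1 at 12 h and 0 at 48 h. The time courses were not tested with this block, whose numbers lie within a time. They were tested with a block crossed over the groups, chosen after seeing the data, and with it TK1 over time in controls passed (log2 -1.10, adjusted p = 0.0313).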
